A study of Mus musculus with 12 samples.

Results

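The comparison set 3 livers in which the mutant Z form of human alpha1-antitrypsin was switched on against 3 livers of the same transgenic line in which it was kept off. The arrays were chosen by their sample titles, which give 6 of the 12 arrays of the study, and all 22626 probe sets other than array controls were compared. All animals were male mice 6 weeks old that carried a human alpha1-antitrypsin gene whose expression can be induced in hepatocytes. In the Z off group, mutant mice drank water with doxycycline at 40 ug/mL from conception until they were killed, which keeps the transgene silent. In the Z on group, mutant mice had no doxycycline. The remaining 6 arrays came from a line with the wild type M form, 3 with doxycycline (M off) and 3 without (M on), and entered the shared fit. The labels give 3 biological replicates a group and do not say how many founder lines each form has. Because every on animal was without the drug and every off animal had it, transgene expression and the absence of doxycycline cannot be told apart within a line.

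Alpha1-antitrypsin is a protease inhibitor that hepatocytes secrete in large amounts. The Z variant misfolds in the endoplasmic reticulum, where part of it polymerises and is retained, and carriers with severe deficiency can develop liver disease. Retained Z protein is known to be cleared by ER-associated degradation, in which misfolded proteins are exported to the proteasome, and by autophagy. Its accumulation has been linked to NF-kappaB signalling more than to the classical unfolded protein response.

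The arrays measured liver as labelled. All 9 measured hepatocyte markers had a mean signal of at least 100, and their summed signal was 105067 to 120118 on the Z off arrays and 108142 to 129469 on the Z on arrays. Serpina1b, a mouse counterpart of the transgene, had signals of 17913, 15745 and 13912 with Z off and 16506, 15558 and 13388 with Z on. The platform annotation used here names mouse genes, so induction of the human transgene itself was not analysed here. Array medians ranged from 38.7 to 47, and 7083 probe sets had a mean signal of 100 or more over the 12 arrays, called bright below. The Z off arrays stood apart from the rest of the study for more probe sets than those of any other group. For 269 of the 7083 bright probe sets (3.8%) all 3 Z off arrays lay above or below all 9 other arrays, against 1.69% for Z on, 1.88% for M on and 1.48% for M off. The 3' probe set of the 18S ribosomal control also separated the groups. It read 914.2 to 1492 on the Z on arrays, 93.9 to 373 on the Z off arrays and 226.6 to 767.5 on the M arrays. The exact two-sided permutation p of Z on against Z off was 0.1, the smallest that 3 against 3 can give. The ratio of the actin control's 3' to 5' signal, a measure of RNA integrity, was 2.44 to 5.16 with Z on and 2.18 to 2.53 with Z off (exact permutation p = 0.2). The part of either control measure in the differences below was not tested.

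Few probe sets separated Z on from Z off beyond the spread between arrays. With all 22626 probe sets in 1 limma model and Benjamini-Hochberg adjustment, 3 probe sets passed an adjusted p of 0.05, which is 0.0133% of those tested. Of these, 1 was higher in Z on and 2 were lower. When the 7083 bright probe sets were fitted alone, 3 passed (0.0424%), again 1 higher and 2 lower, and Alas2 was the gene on both lists. Before adjustment 1424 probe sets (6.29%) had a p under 0.05, 611 higher and 813 lower. For 2676 probe sets (11.8%) the 3 Z on arrays did not overlap the 3 Z off arrays, and among the bright ones the share was 14.5% (7.14% higher and 7.33% lower). Taking the brightest probe set of each of 12393 genes, it was 12.5%, 5.5% higher and 7% lower. Of these genes 4689 were bright, and for them it was 15.1%. The same count in the M line was 10.5% of all and 12.5% of bright probe sets. The median log2 difference was -0.03 over all probe sets and 0.00 over the bright ones, and 46 bright probe sets were higher and 28 lower by 2-fold or more.

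**Figure D1:**
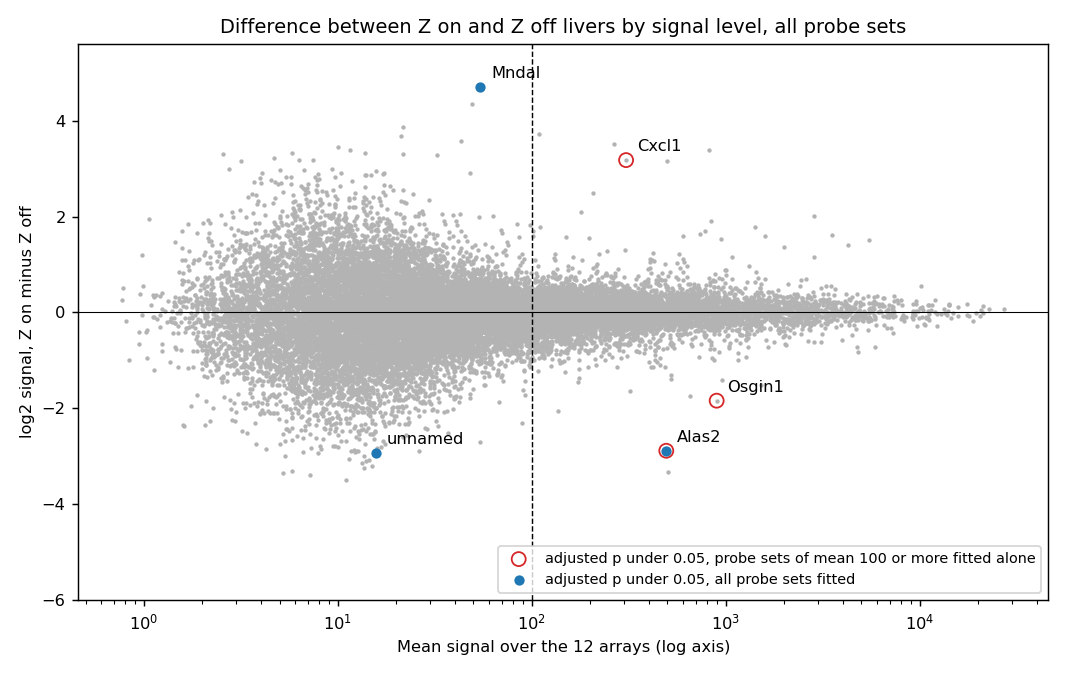
Each point is 1 of the 22626 probe sets, with its mean signal over the 12 arrays on a log axis against its log2 difference, Z on minus Z off, and the dashed line at a signal of 100. Filled points passed an adjusted p of 0.05 with all probe sets fitted and open circles passed with the bright ones fitted alone. Differences spread widely below a signal of 100, and Alas2 is the gene marked both ways.

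Heme is built by a chain of enzymes, the first of which, 5-aminolevulinate synthase, has an erythroid form, Alas2, and a form found in all tissues, Alas1. Alas2 fell in the livers with Z on. Its signals were 1456, 1259 and 1119 with Z off and 211, 177 and 136 with Z on. All 3 Z on arrays lay far below all 3 Z off arrays, and the log2 difference was -2.88 (SE 0.20), 7.38-fold lower, with an adjusted p of 0.00159. Over the alternative fits the difference ranged from -3.03 to -2.57 and the adjusted p from 3.44e-07 to 0.112, and the fit of the 6 Z arrays alone was the 1 of 16 that did not call it. The M arrays were at 307, 254 and 262 without and 231, 252 and 254 with M expression, above the Z on arrays and far below the Z off arrays. The Z off livers thus held the highest Alas2 of all 4 groups. The Z difference minus the M difference of -0.16 was -2.73 on the log2 scale. The test of that interaction gave an adjusted p of 0.0624 in the fit of all probe sets, short of the threshold. With the bright probe sets fitted alone it was 0.000359, and of the other alternative fits some called the interaction and some did not.

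The other markers of red cell precursors gave similar sums in both groups. The remaining 11 measured erythroid markers summed to 450.8 to 632.1 on the Z off arrays and 526.4 to 618.4 on the Z on arrays, with 8 higher and 3 lower in Z on. Among them only the mitochondrial iron importer Slc25a37 had a mean signal above 100. The globin genes Hba-a1 and Hbb-b2 were dim, at means of 18.2 and 80.1 with Z off and 24.5 and 42.1 with Z on.

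Alas1, the form that limits heme synthesis in liver, had higher values with Z on. It was at 909, 455 and 592 with Z off and at 3449, 1546 and 1275 with Z on. The groups did not overlap, replicate 1 was the highest array of each, and the log2 difference of 1.60 (SE 0.40) did not pass (adjusted p = 0.571). In the M line Alas1 was 604 to 928 off and 2304 to 3469 on, a log2 difference of 1.88. Of the 8 measured enzymes of the pathway, 3 were higher and 5 lower. Between the groups 3 did not overlap (37.5% beside 12.5% of all genes and 15.1% of bright genes). Beside Alas2 and Alas1 this was Cpox, coproporphyrinogen oxidase, at 271 to 483 with Z off and 196 to 229 with Z on. Ferrochelatase, which inserts the iron, differed by 0.06. Among iron genes the hepcidin gene Hamp differed by -0.44 and the transferrin receptor Tfrc by -0.62, with overlapping groups.

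The upstream sequence of Alas2 is shown because it was called in both fits. It is the 250 bases before the start of Alas2 on the plus strand (chrX:150547167-150547416, RefSeq, build GRCm38.p6). Capitals mark the 1 match to the GATA motif, searched as AGATAA with A or T in first and A or G in last place on both strands, and read here from the opposite strand. The match spans bases 86 to 81 before the start, and 26.5% of 32851 RefSeq promoters hold 1 or more in a window of this length.
Alas2: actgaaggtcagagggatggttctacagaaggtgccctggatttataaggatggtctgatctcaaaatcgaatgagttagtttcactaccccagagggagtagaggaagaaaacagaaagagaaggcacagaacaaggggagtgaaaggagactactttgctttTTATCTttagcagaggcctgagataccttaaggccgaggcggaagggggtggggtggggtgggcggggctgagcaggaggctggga

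**Figure D2:**
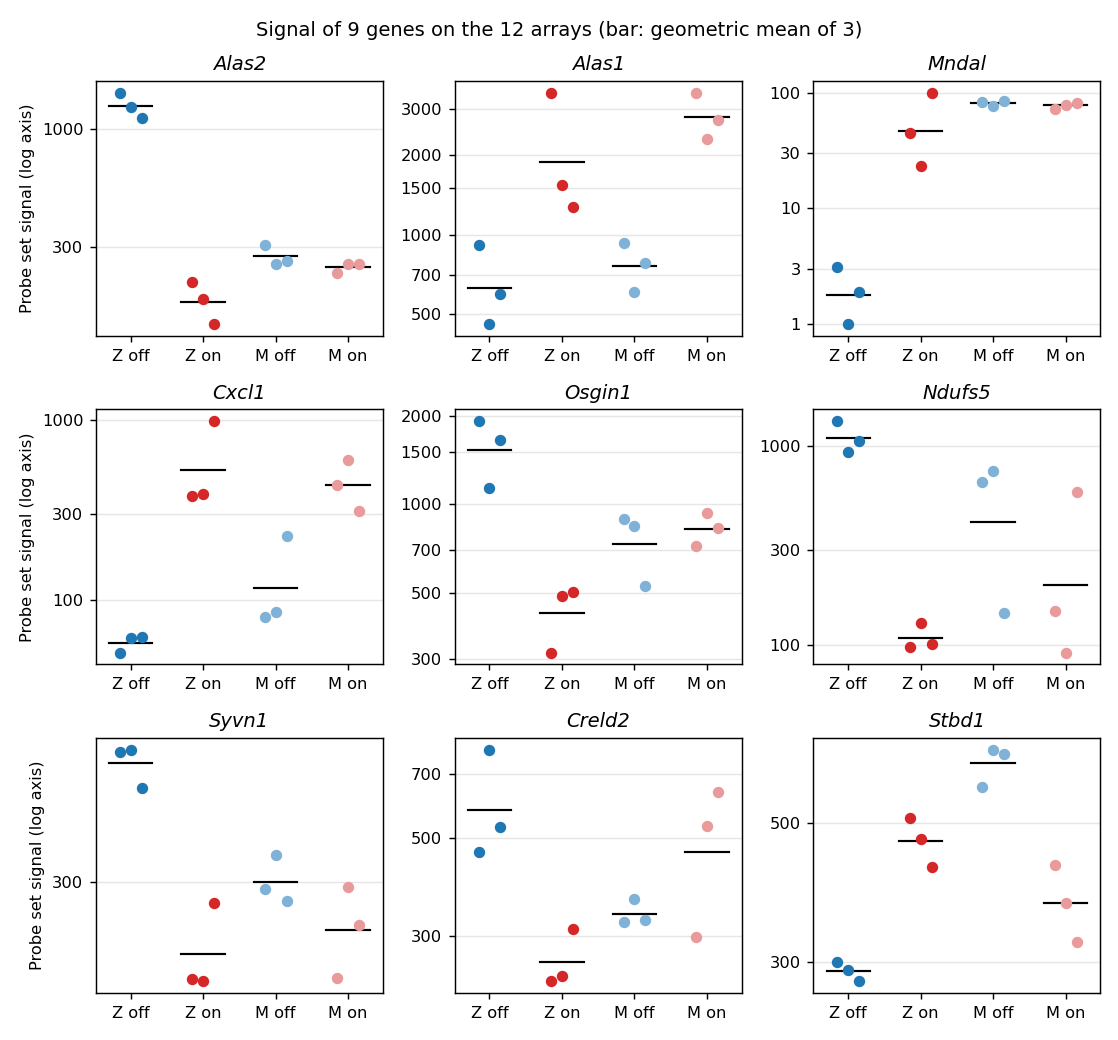
Points are the signals of 9 genes on the 12 arrays, on log axes with a range of their own, and bars are geometric means of 3 arrays. Alas2 is highest with Z off and Mndal is near the floor there alone, while Alas1 and Cxcl1 are higher in the on group of both lines and Ndufs5 is split among the M arrays.

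Mndal, a member of the interferon-inducible PYHIN family of DNA-binding proteins, rose and was the 1 probe set called higher over all probe sets. It was at the floor of the scale with Z off, at 3.1, 1 and 1.9, and reached 44.8, 23.1 and 99.8 with Z on. With Z off at the floor the size of the difference is not settled. It was 4.70 on the log2 scale as fitted and 0.96 to 5.21 over the alternative fits, smallest where 50 was added before log2. The adjusted p was 0.0333, and 0.00217 to 0.348 over the alternative fits, 6 of 15 of which called it. Without Z on replicate 2 or Z off replicate 1 it was still called, and without any other single Z array it was not. Both M groups were at the upper level, at 76.3 to 84.6 off and 72.8 to 81.4 on. All of these signals are under 100, where a log2 difference depends on the constant added, as it does for the dim genes named below. A further Mndal probe set pointed the same way and its groups did not overlap, at 6.1, 1.1 and 5.1 with Z off and 38.2, 30 and 50.1 with Z on.

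The interferon-stimulated genes, Mndal among them, were spread about 0. Of the 30 measured members 1, Mndal, was called, beside 0.0133% of all probe sets. In value 15 were higher and 15 lower, with a median difference of -0.01. Without overlap were 1 higher, Mndal, and 5 lower (20% beside 12.5% of all genes). The signal transducer Stat2 was at 81.7 to 109.8 with Z off and 52 to 73.8 with Z on, and its log2 difference of -0.57 did not pass. Ifit2 and Oasl2, both induced by interferon, differed by -1.09 and -1.09 with groups that did not overlap. The probe set without a gene name that was called lower was dim, at 19.5, 26 and 20.8 with Z off and 3, 3.6 and 2.2 with Z on, a log2 difference of -2.93 as fitted and -3.09 to -0.44 over the alternative fits (adjusted p = 0.0333). Only 1 of 14 alternative fits called it, and the call was lost without any 1 of the 6 Z arrays (adjusted p 0.0235 to 0.2 over the fits). In the M line it went from 8.5 to 17 off to 17.5 to 28.5 on.

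Cxcl1, a chemokine that attracts neutrophils, rose in the fit of bright probe sets and had the largest difference among NF-kappaB targets. Its signals were 51, 61.4 and 62.8 with Z off and 379, 389 and 988 with Z on. Every Z on array was about 6 times the highest Z off array or more, and Z on replicate 3 was the highest. The log2 difference was 3.18 (SE 0.48), with an adjusted p of 0.0147 when the bright probe sets were fitted alone and 0.157 over all, in a range of 0.00724 to 0.319 over all fits. The M line showed the same direction, 80.4 to 227 off and 314 to 598 on, and the interaction had an adjusted p of 0.933.

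Neutrophil markers were dim in both groups. None of the 11 measured neutrophil markers had a mean signal of 100, and they summed to 225 to 340.8 with Z off and 247.7 to 344 with Z on. Of the 25 measured genes of the NF-kappaB list, 8 were higher and 17 lower, with a median of -0.07. Birc3, an inhibitor of apoptosis, was at 84.1 to 136 with Z off and 136 to 199 with Z on, by the 1 of its 2 probe sets that was higher. The subunit Rela was at 333 to 441 with Z off and 257 to 320.1 with Z on. Neither passed, with adjusted p-values of 0.703 and 0.804. The chemokine Cxcl2 and the adhesion molecule Icam1 differed by 0.02 and -0.06 at signals below 100.

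The upstream sequence of Cxcl1 (chr5:90890995-90891244, plus strand, RefSeq, build GRCm38.p6) is shown because its signal separated the groups in both lines. Capitals mark an NF-kappaB site, which matched on both strands 1 base apart and begins 71 bases before the start. Of all promoters, 3.9% hold a match in a window of this length.
Cxcl1: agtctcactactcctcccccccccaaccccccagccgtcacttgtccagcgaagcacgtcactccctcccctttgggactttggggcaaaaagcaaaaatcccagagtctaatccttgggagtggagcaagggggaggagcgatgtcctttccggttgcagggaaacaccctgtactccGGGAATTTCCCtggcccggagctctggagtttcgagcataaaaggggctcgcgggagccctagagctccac

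Osgin1, an inhibitor of growth induced by oxidative stress, fell in the fit of bright probe sets. It was at 1916, 1132 and 1649.6 with Z off and 314, 491 and 505 with Z on, so that the groups lay far apart. The log2 difference was -1.84 (SE 0.30), with an adjusted p of 0.0174 in the fit of bright probe sets and 0.21 over all (0.00569 to 0.494 over all fits). The M arrays lay between, at 529 to 890.4 off and 721 to 936 on. Osgin1 is a target of NRF2, the factor that switches on antioxidant genes, and of the 27 measured genes of that kind 13 were higher and 14 lower, with a median of -0.01. Gclc, which makes the rate-limiting subunit for glutathione, differed by -0.92 with overlapping groups, and Nqo1 by 0.49.

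The acute phase proteins, which hepatocytes secrete during inflammation, were mostly higher in value, and none was called. Of 27 measured, 20 were higher and 7 lower with a median of 0.18, beside -0.03 over all genes. Of the list 14.8% did not overlap, beside 12.5% of all genes and 15.1% of bright genes, and 21 of the 27 were bright. Serum amyloid P, Apcs, was at 1319, 1818 and 1672 with Z off and 3765, 2066 and 5814 with Z on. Saa3 was at 67.8 to 90 with Z off and 129.9 to 185 with Z on. Metallothionein Mt2 and the cytokine-signalling inhibitor Socs3 were high on Z on replicates 1 and 3 and not on replicate 2. Mt2 read 1485, 242 and 1545 with Z on against 227 to 362 with Z off. Socs3 read 323, 44 and 278 against 46.1 to 66.4. Without Z on replicate 3 the median of the list was -0.07, so its sign rested on that array.

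The named genes beyond these calls were the 15 higher and 15 lower bright genes of smallest p whose groups did not overlap, a choice made on this contrast, so their values are a description. The higher genes differed by 0.69 to 3.18 on the log2 scale and the lower by -3.34 to -0.65. Apart from Alas2, their adjusted p-values in the fit of all probe sets lay between 0.157 and 0.604. The mean of the M arrays lay nearer to Z on than to Z off for 14 of the 15 higher and 12 of the 15 lower genes. The M difference had the sign of the Z difference for 7 of the higher and 10 of the lower genes. No interaction among the 30 passed in the fit of all probe sets, with adjusted p-values of 0.0624 to 0.973. Of 20 other probe sets that 14 of these genes have, 17 agreed in sign. The exceptions were a dim probe set of Foxo1 and 1 each of Dhrs7b and Pnkd.

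Of the higher genes, Thrsp, a protein that promotes fat synthesis, was at 727, 1312 and 1305 with Z off and 5559, 4812 and 3108 with Z on, a difference of 2.02 (SE 0.40) (its brighter probe set differed by less, also without overlap), and its M groups did not overlap either, at 995 to 2219 with M off and 2767 to 5514 with M on. Dio1, which activates thyroid hormone, was at 221, 375 and 530.1 with Z off and 1129.8, 1370.3 and 989 with Z on, with M arrays from 493 to 1045. The M groups of Dio1 overlapped.

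The higher genes also included some whose M groups were ordered the other way round. Foxo1, a factor that insulin holds out of the nucleus, was at 113 to 176 with Z off and 232 to 311 with Z on. Stbd1, which anchors glycogen to membranes, was at 300, 291 and 279.7 with Z off and 509, 471 and 425 with Z on. Gne, the first enzyme of sialic acid synthesis, was at 445 to 504 with Z off and 711 to 853 with Z on. All of these had M off levels above M on levels, with M differences of -0.31, -0.74 and -0.33, against Z differences of 0.92, 0.69 and 0.74. The retinol dehydrogenase Rdh9 differed by 1.03 in the Z line and -0.62 in the M line. Interaction p-values, adjusted, were 0.23 for Stbd1, 0.368 for Rdh9, 0.566 for Gne and 0.637 for Foxo1 in the fit of all probe sets. With the bright probe sets fitted alone, that of Stbd1 was 0.0306. The phosphatase receptor Ptprf was at 391, 301 and 276 with Z off and 577, 768 and 649 with Z on by 1 probe set, while the brightest of its 3 probe sets overlapped and differed by 0.15. Bnip3, which marks mitochondria for autophagy, was at 722 to 1045 with Z off and 1298 to 2016 with Z on. The peroxisomal thiolase Acaa1a differed by 0.92, Zfyve21 by 0.83 and Dhrs7b by 0.75. The brightest Acaa1a probe set differed by 0.47 without overlap, and further probe sets of Zfyve21 and Dhrs7b by 0.499 and -0.17 with overlap.

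Of the lower genes, Gjb1, connexin 32 of hepatocyte gap junctions, was at 1245, 1029 and 1279 with Z off and 458, 719.6 and 681 with Z on. Tjp3, a tight junction scaffold, was at 158, 158 and 159 with Z off and 71.5, 72.4 and 104 with Z on. The protocadherin Pcdh1 was at 128 to 163 with Z off and 58.6 to 99 with Z on. Each of the 3 differed by -0.96, and the brighter of the Gjb1 probe sets by -0.66, also without overlap. The transmembrane protein Smagp differed by -0.98 (SE 0.20). Tmed3, which carries cargo between ER and Golgi, was at 181, 218 and 277 with Z off and 94.5, 98 and 142 with Z on. Fpgs, which retains folates in the cell, was at 656, 731 and 643 with Z off and 265, 320 and 500.4 with Z on. Tmed3 and Fpgs were also lower without overlap in the M line, by -0.55 and -0.27. Abhd5, the activator of triglyceride lipase on lipid droplets, was at 245 to 258 with Z off and 119 to 159 with Z on, and its brighter probe set differed by -0.57 without overlap. The mitochondrial nucleotidase Nt5m, the sugar-nucleotide enzyme Gmppa, the cell cycle protein Cks1b and Pnkd differed by -0.91, -0.75, -0.65 and -1.03. The brightest Gmppa probe set overlapped and differed by -0.33, and a further probe set of Pnkd overlapped at 0.07, as did one of Cks1b at -0.43.

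**Figure D3:**
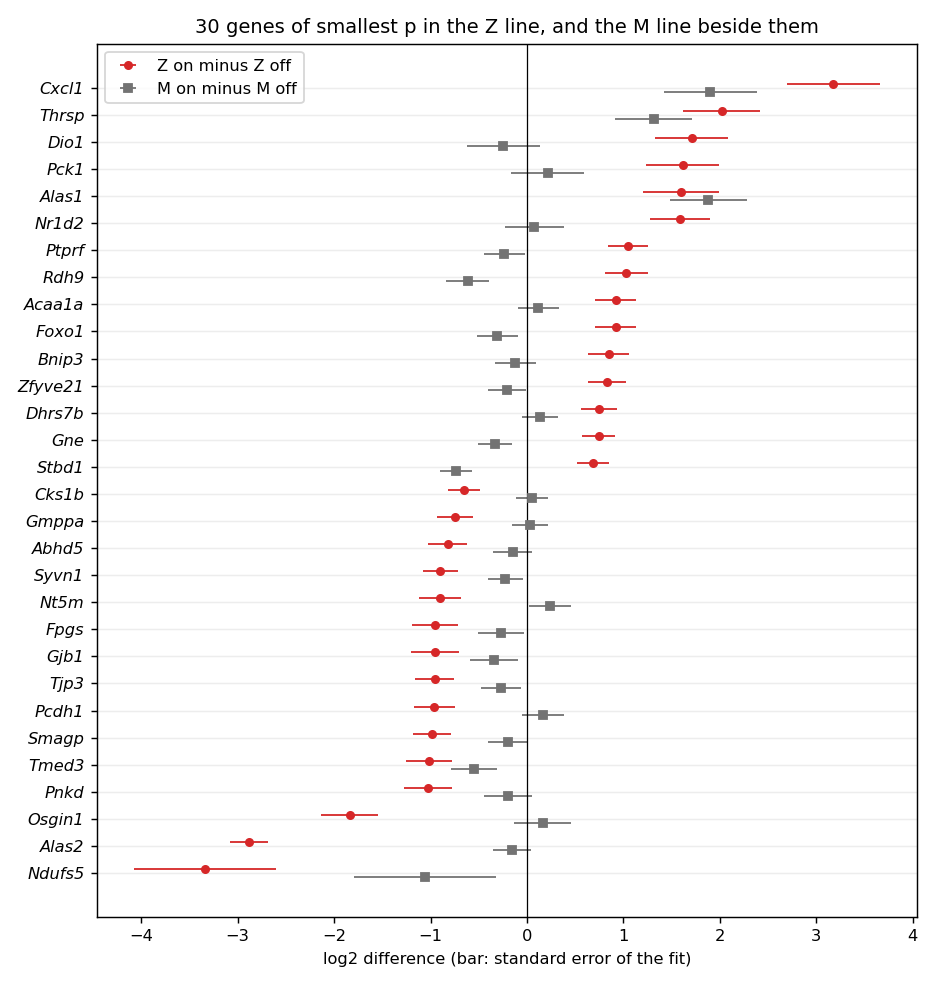
For the 30 bright genes of smallest p in the Z line, circles give the log2 difference Z on minus Z off and squares M on minus M off, with standard errors of the fit. Cxcl1, Thrsp and Alas1 are higher in both lines, Stbd1, Rdh9, Gne and Foxo1 lie on opposite sides of 0, and no interaction passed the threshold in the fit of all probe sets.

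The largest differences among bright genes included some whose M arrays were split within a group, such as Ndufs5 and Psen2. Ndufs5, a subunit of respiratory complex I, was at 1336, 929 and 1056 with Z off and 97.7, 129 and 101 with Z on. On the M arrays it read 659, 750.4 and 144 off and 148, 91.3 and 588 on, so 3 M arrays lay near the low level and 3 well above it, and each M group held both. The 39 measured respiratory chain subunits of the list, which does not hold Ndufs5, had a median of -0.03 and a range of -0.32 to 0.20. Psen2, presenilin 2 of the gamma-secretase, was at 1096, 1100.5 and 929 with Z off and 291, 337 and 299 with Z on, with M arrays at 1131, 303 and 252 off and 716, 549 and 803 on. Pctp, which transfers phosphatidylcholine, was at 404, 30.1 and 9.8 with Z off and 484, 833 and 434 with Z on. Z off replicate 1 was close to the Z on level, far above the other Z off arrays, and the adjusted p was 0.685. All 6 M arrays of Pctp lay on the Z off side of the gap between the Z groups. Gstm5, a glutathione transferase, was at 232, 179 and 228 with Z off and 455, 443 and 2483 with Z on, and at 166, 164 and 197 with M off and 854, 4093 and 586 with M on. In each on group 1 array was several times as high as the others.

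Of the bright probe sets that did not overlap and differed by 2-fold or more, 26 were higher and 19 lower. For 8 of the 26 and 6 of the 19 all 6 M arrays lay on the Z on side of the gap between the Z groups. For 2 in each direction they all lay on the Z off side, and for the other 16 and 11 they fell on both sides. Elovl3, a fatty acid elongase under hormonal control, was at 2699, 3953 and 3519 with Z off and 643, 1142 and 2242 with Z on, with M arrays from 374 to 1178. The glucuronosyltransferase Ugt2b38 was at 1053, 929.5 and 814 with Z off and 522, 370.3 and 226 with Z on. Sco2, needed to assemble cytochrome oxidase, was at 591 to 1041 with Z off and 283 to 473 with Z on. The immediate early gene Egr1 and the RNA-binding Zfp36l1 had Z on maxima close to the Z off minima: 85.2 to 262 with Z off and 53.8 to 81.3 with Z on for Egr1, 127 to 323 with Z off and 40.9 to 124 with Z on for Zfp36l1. The brighter Zfp36l1 probe set overlapped and differed by less, -0.41 to -0.19 over the fits. Cyp2c55, a drug-metabolising P450, had differences of opposite sign in the lines, -1.19 for Z and 1.70 for M, and an interaction p, adjusted, of 0.598.

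The circadian clock runs on a loop in which BMAL1, the product of Arntl, and CLOCK switch on the Per and Cry genes through E-boxes, and their products feed back to inhibit them. REV-ERB proteins, from Nr1d1 and Nr1d2, repress Arntl, and the factors DBP, TEF and HLF carry the rhythm to outputs such as detoxification and heme synthesis. Clock genes differed between the groups mainly on Z on replicates 1 and 2, while Z on replicate 3 lay nearer to the Z off livers. Beside the M line, the median of the output list was -0.38 for Z off minus M off and -0.09 for Z on minus M on. For the core loop list these medians were -0.33 and 0.07.

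Over the 31 measured genes of the loop and its outputs, 23 lay outside the Z off range on the same side on both Z on replicates 1 and 2. For 9 of these Z on replicate 3 lay outside on the same side too, for 10 it was within the Z off range and for 4 it lay on the other side. Its distance from the Z off mean was the smallest of the 3 arrays for all 23, with a median size of 0.48 on the log2 scale against 1.86 and 1.59 for replicates 1 and 2. The 23 genes were picked by replicates 1 and 2, so the smaller distance of replicate 3 is partly built in. Over all bright probe sets, with no such choice, 55.5, 53.6 and 49.8% lay outside the Z off range on Z on replicates 1, 2 and 3. None of the 31 genes was called in the reported fit of all probe sets. Groups did not overlap for 9 of 31, beside 12.5% of all genes. In a limma fit with an intensity trend and robust variances Nr1d2 passed (adjusted p = 0.0395). The labels used here give no hour of collection, so the part of the time of day was not tested.

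Most outputs had higher values with Z on, and the activators Arntl and Npas2 had lower ones. Dbp was above the Z off mean by 4.75, 4.77 and 0.66 on the log2 scale on Z on replicates 1, 2 and 3. A further Dbp probe set, 3.15 over all arrays, passed only when Z on replicate 3 was left out (adjusted p = 0.0274, 0.0274 to 0.949 over all fits). On that probe set all 6 M arrays, off and on, lay on the Z on side of the gap between the Z groups. Usp2, a deubiquitinase with a strong daily rhythm, was above by 3.49, 3.40 and 0.57, and the thyrotroph embryonic factor Tef by 1.86, 1.54 and 0.24. Per3 was above by 2.33, 2.59 and 0.43, and Upp2, a uridine phosphorylase, by 2.82, 2.40 and 0.11. These genes share the pattern of 2 arrays far above and 1 near the Z off livers.

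Other clock genes lay outside the Z off range on all 3 Z on arrays. Nr1d2 was at 300.4, 269.6 and 149 with Z off and 919, 768 and 464 with Z on, a difference of 1.59 (SE 0.31, adjusted p = 0.443, 0.0395 to 0.775 over the fits). Cry2, a repressor of the loop, was at 21, 54 and 63.7 with Z off and 96.4, 125 and 89 with Z on, and Per1 at 57.8, 30.4 and 30.4 with Z off and 159.8, 125 and 69.4 with Z on. Arntl, the activator, was at 116, 96.2 and 179 with Z off and 4, 22.5 and 80.8 with Z on, and its partner Npas2 at 16.2 to 38.8 with Z off and 2 to 15.8 with Z on. Noct, a rhythmic phosphatase of NADP, was at 85.5, 56.1 and 45.5 with Z off and 655, 268 and 97.6 with Z on. In the M line Arntl and Noct differed in the same direction, by -1.74 and 1.47, while Cry2 and Per1 differed by -1.40 and -0.63. For Nr1d2 all 6 M arrays lay on the Z on side of the gap between the Z groups. For Noct and Alas1 the M arrays fell on both sides of it. Nr1d1 differed by -0.04 with all arrays, and its sign turned when arrays were left out, so no direction is given for it.

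**Figure D4:**
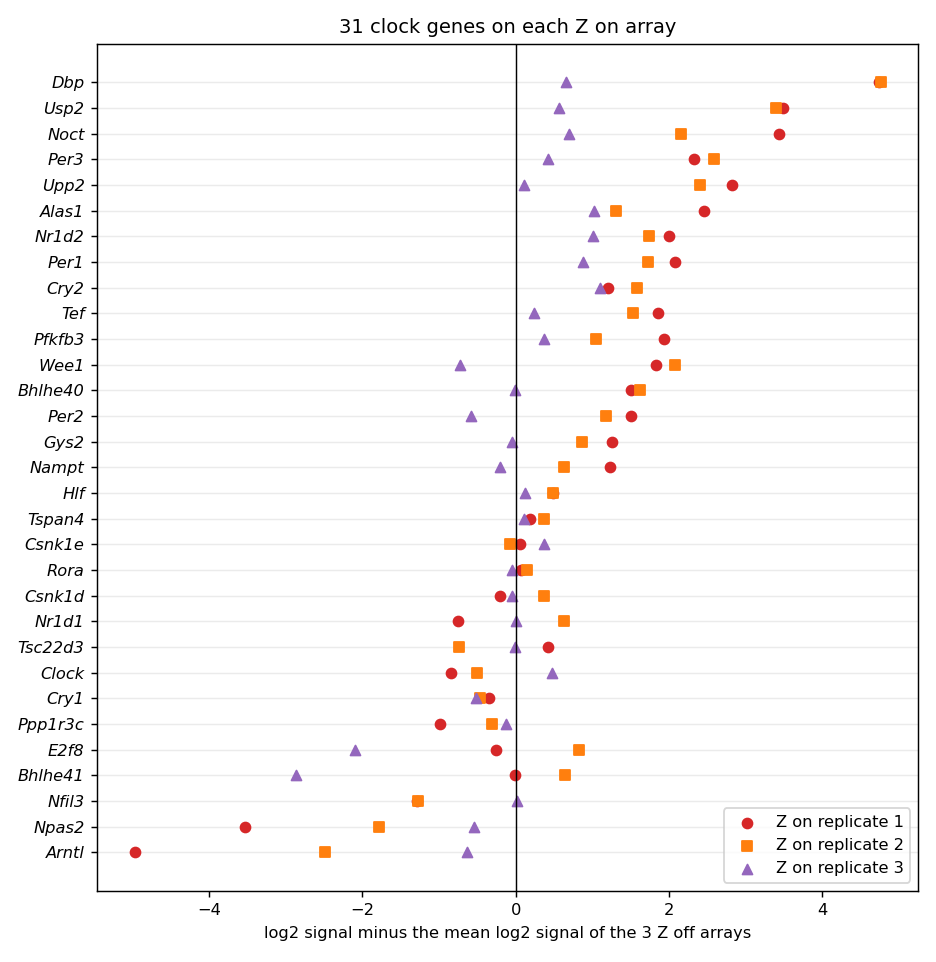
Each point is the log2 signal of 1 Z on array minus the mean of the 3 Z off arrays, for clock genes of the loop and its outputs, with the Z on replicates told apart by symbol. Replicates 1 and 2 lie far from 0 for Dbp, Usp2, Per3 and Arntl, and replicate 3 lies closer to 0.

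The upstream sequences of Per1 and Tef are shown because both contain the E-box on which the loop acts. They are the 250 bases before the first RefSeq start of each gene on the plus strand (build GRCm38.p6, chr11:69098699-69098948 and chr15:81802423-81802672). Capitals mark CACGTG, which reads the same on both strands, 166 to 161 bases before the start of Per1 and 127 to 122 before that of Tef. Of all promoters 6.02% hold it in such a window. The windows of Dbp, searched for the E-box, and Arntl, searched for the RORE, held no match, which says only that these letters are not in these 250 bases.
Per1: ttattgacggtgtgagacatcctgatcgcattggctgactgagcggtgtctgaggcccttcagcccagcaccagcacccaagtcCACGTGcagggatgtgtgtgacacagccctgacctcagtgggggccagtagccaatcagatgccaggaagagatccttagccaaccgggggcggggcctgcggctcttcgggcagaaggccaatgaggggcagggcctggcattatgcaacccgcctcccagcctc
Tef: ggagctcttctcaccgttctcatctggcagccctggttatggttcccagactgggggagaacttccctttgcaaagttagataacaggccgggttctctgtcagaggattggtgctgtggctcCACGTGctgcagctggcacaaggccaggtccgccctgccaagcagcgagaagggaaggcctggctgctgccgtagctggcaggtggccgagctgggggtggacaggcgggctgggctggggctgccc

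Among genes that handle folding and disposal of secretory proteins, no gene was called, and the endoplasmic reticulum chaperones were mostly lower in value. Of 20 chaperones and oxidoreductases, 4 were higher and 16 lower, with a median of -0.18 beside -0.03 over all genes. The 4 whose groups did not overlap were all lower (20%, beside 7% of all genes and 7.83% of bright genes lower). In either direction the shares were 12.5% of all genes and 15.1% of bright genes, and 19 of the 20 were bright. Over the alternatives the list median ran from -0.31, without Z on replicate 3, to -0.11, without Z on replicate 1. Creld2, a disulfide isomerase induced by ER stress, was at 465, 794 and 530.1 with Z off and 237, 244 and 311 with Z on (adjusted p = 0.616). Manf, a secreted stress protein, was at 1636, 2636 and 2618 with Z off and 1028, 1489.8 and 1634 with Z on. Dnajb9, a cochaperone of BiP, was at 754, 812 and 780.5 with Z off and 417, 431 and 648 with Z on, and Hyou1 at 429, 373 and 476 with Z off and 323, 348 and 316 with Z on. Each of the 4 had its Z on arrays just under the lowest Z off array or further below, though only 2 of the 3 Hyou1 probe sets were lower. The lectin chaperone Canx and the abundant Hsp90b1 differed by 0.16 and 0.01 with overlap. The brightest probe set of Hspa5 differed by -0.37 to -0.15 over the fits, and every probe set of Hspa5 overlapped.

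In ER-associated degradation the ubiquitin ligase Syvn1, which marks misfolded proteins for export, was at 458, 461 and 407 with Z off and 219, 217 and 279.8 with Z on, a difference of -0.90 (SE 0.18, adjusted p = 0.443). Of the 18 measured genes of the pathway 6 were higher and 12 lower, with 1 and 4 that did not overlap (27.8% beside 12.5% of all genes and 15.1% of bright genes). Edem2 and Edem3, which trim mannose from misfolded glycoproteins, differed by -0.35 and -0.30, and the ubiquitin-binding Ubxn4 by -0.46. The ligase Marchf6 was the 1 higher without overlap, at 0.15. The dislocation proteins Derl1, Derl2 and Derl3 differed by 0.14, -0.11 and 0.15. The adaptor Sel1l, a partner of Syvn1, differed by -0.04 with overlap.

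The sensors of the unfolded protein response differed in sign. Atf6, which is cleaved to release a transcription factor, was at 148, 152 and 182 with Z off and 228, 213 and 232 with Z on. Eif2ak3, the kinase PERK, was at 150.1, 187 and 139.8 with Z off and 100.4, 105 and 116 with Z on. Only 2 of the 3 Eif2ak3 probe sets were lower. Ern1, the sensor IRE1 alpha, was dim and differed by -0.37. Every probe set of Xbp1 and Ddit3 overlapped. Over the fits the brightest differed by -0.013 to 0.17 for Xbp1 and by -0.43 to -0.13 for Ddit3. Over the 13 measured sensors and effectors 5 were higher and 8 lower, and 12 of 23 targets of the integrated stress response were higher. Atf3, a stress-induced factor, was at 8.3 to 14.3 with Z off and 19.3 to 29.6 with Z on, near the floor of the scale. Fgf21, a hormone of that response and of fasting, was at 55.5 to 97.7 with Z off and 6.9 to 40 with Z on.

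The upstream sequences of Creld2 and Syvn1 are shown because each holds an ER stress response element, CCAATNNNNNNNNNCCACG searched on both strands, which 0.113% of all promoters hold. The 2 genes were chosen after their values were seen. They are the 250 bases before the RefSeq starts on the plus strand (build GRCm38.p6, chr15:88819396-88819645 and chr19:6046326-6046575). Capitals mark the element, 126 to 108 bases before the start of Creld2, where it is read from the opposite strand, and 44 to 26 before that of Syvn1.
Creld2: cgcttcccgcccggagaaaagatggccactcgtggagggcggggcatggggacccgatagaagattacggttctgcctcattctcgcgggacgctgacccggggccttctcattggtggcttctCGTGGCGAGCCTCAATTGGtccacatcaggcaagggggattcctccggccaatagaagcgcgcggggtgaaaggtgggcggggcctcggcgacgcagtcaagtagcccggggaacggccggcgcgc
Syvn1: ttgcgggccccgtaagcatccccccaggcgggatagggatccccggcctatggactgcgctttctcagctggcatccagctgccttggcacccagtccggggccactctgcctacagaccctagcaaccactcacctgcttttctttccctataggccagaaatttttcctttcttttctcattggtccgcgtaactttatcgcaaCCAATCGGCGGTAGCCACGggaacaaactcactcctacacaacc

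Cytosolic heat shock genes held 1 member higher and 5 lower without overlap among 18 (33.3% beside 12.5% of all genes and 15.1% of bright genes), and none was called. Hspa1a, an inducible HSP70, was at 80.6, 61.5 and 106 with Z off and 4.9, 31 and 52.8 with Z on, below a mean of 100. The cochaperones Fkbp4 and Bag3 differed by -0.49 and -0.52, and the HSP110 gene Hsph1 by -0.33. The mitochondrial chaperonin Hspd1, in contrast, differed by 0.25. The proteasome, which degrades exported protein, had 22 of 30 subunits higher and 8 lower, with a median of 0.09, and 10% did not overlap, below the 12.5% of all genes. Those 3 were Psmd13, Psmc1 and Psma3, at 0.30, 0.28 and 0.23.

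Of 29 autophagy and lysosome genes 15 were higher and 14 lower with a median of 0.03. Bnip3 was the highest of them. Hexa, a lysosomal hexosaminidase subunit, was at 255, 176 and 145 with Z off and 295, 290.1 and 362 with Z on. The membrane protein Lamp1 was at 2664 to 2965 with Z off and 3134 to 3606 with Z on, and the proton pump subunit Atp6v1h differed by 0.22. The autophagy receptor Sqstm1 was the 1 lower gene whose groups did not overlap, at -0.33, beside 4 higher ones. In all 17.2% of the list did not overlap, beside 12.5% of all genes and 15.1% of bright genes, and 27 of the 29 were bright. The autophagosome genes Becn1, Atg5 and Atg12 differed by 0.12, 0.03 and -0.03 with overlap.

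Extracellular matrix genes were mostly lower in value with Z on, as were stellate cell markers. Of 29 measured matrix genes 4 were higher and 25 lower with a median of -0.38, beside -0.03 over all genes. Without overlap were 1 higher and 8 lower (31% in all, beside 12.5% of all genes), and none was called. The 1 higher was Ccn2, a growth factor of connective tissue, dim at 37, 37.4 and 26.6 with Z off and 72.1, 49.1 and 53.7 with Z on. Col1a2, a chain of type I collagen, was at 249, 164 and 166 with Z off and 121, 155 and 117 with Z on. Col4a1, of the basement membrane, was at 143, 131 and 105 with Z off and 92.1, 92.6 and 91.1 with Z on. Tagln, a contractile gene of activated stellate cells and smooth muscle, was dim at 77.9, 44.2 and 46.7 with Z off and 10.7, 18.3 and 22.9 with Z on. Its log2 difference of -1.72 ran from -1.96 to -0.65 over the alternatives. Acta2, of the same kind, differed by -0.50. Col3a1 had the largest difference of the bright collagens, -1.13 (SE 0.30) with an adjusted p of 0.636. Over the alternatives the median of the matrix list ran from -0.47 to -0.15, the smallest with 50 added before log2, and without Z off replicate 3 it was -0.25.

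The 11 measured stellate cell markers, 3 of which (Col3a1, Acta2 and Col1a1) are also on the matrix list, were all lower in value, and 4 did not overlap (36.4%, beside 7% of all genes lower and 12.5% in either direction). Their summed signal was 2492 to 2861 with Z off and 1587 to 2061 with Z on. The M line had the same order, 2580 to 2825 off and 1700 to 2263 on. Without Col3a1 the sums were 2009.5 to 2149 with Z off and 1351 to 1817 with Z on. Dcn, a small proteoglycan, was at 719.7, 836 and 705 with Z off and 392, 592 and 699 with Z on, and Ecm1 at 354, 359.7 and 369.7 with Z off and 251, 277 and 283 with Z on. In whole liver, fewer cells of a type and less RNA per cell cannot be told apart, and the part of the stellate share in the matrix values was not tested. Summed markers of Kupffer cells were 2406 to 2741 and 2369 to 2614, and those of sinusoidal endothelium 1454 to 1892 and 1569.8 to 1834, with overlap. Markers of B and plasma cells, T and NK cells, cholangiocytes and skeletal muscle had no member with a mean of 100.

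Sterol genes were mostly higher in value and none was called. Of 27 genes of cholesterol synthesis, uptake and efflux, 18 were higher and 9 lower with a median of 0.20, and the same list had a median of 0.34 in the M line. Without overlap were 18.5% beside 12.5% of all genes and 15.1% of bright genes, and 25 of the 27 were bright. The 4 higher ones were Idi1, Cyp51 and Tm7sf2, which are enzymes of the pathway, and Stard4, a sterol carrier, at 0.54, 0.59, 0.41 and 0.58. Only 2 of the 3 Cyp51 probe sets were higher. Insig2, which holds the sterol sensor in the ER, was at 1531, 1442 and 1859 with Z off and 513, 977 and 1415 with Z on. Hmgcs1 and Sqle differed by 0.55 and 0.69 with overlap. Fatty acid synthesis genes had a median of 0.09 in the Z line and 0.66 in the M line, with the synthase Fasn at 0.15 and 1.37. Without Z on replicate 1 the median in the Z line was -0.06. Thrsp was the 1 of its 16 genes whose Z groups did not overlap (6.25%, below the 12.5% of all genes).

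Lipid droplet genes held 3 higher and 4 lower without overlap among 20 (35% beside 12.5% of all genes and 15.1% of bright genes). Plin2, the main coat protein of droplets in hepatocytes, was at 4225, 3634 and 3212 with Z off and 2006, 2851 and 2540.2 with Z on. Plin5, which links droplets to mitochondria, was at 192, 166 and 156 with Z off and 119.8, 70.2 and 137 with Z on. Cd36, a fatty acid transporter, was at 177, 144 and 137 with Z off and 252, 281 and 236 with Z on. Lpin2, a phosphatidate phosphatase, was at 613, 601 and 505 with Z off and 1522, 974 and 677 with Z on. Plin2 and Plin5 thus had lower and Cd36 and Lpin2 higher Z on arrays, with adjusted p-values of 0.671, 0.77, 0.785 and 0.694. Genes of fatty acid oxidation had a median of 0.04. Cyp4a14, an omega-hydroxylase, was at 2.3, 2.1 and 1.3 with Z off and 6.5, 33.8 and 28.2 with Z on, dim in both groups, and Acot4 at 18.9 to 42.2 with Z off and 42.3 to 92.2 with Z on. The mitochondrial enzymes Cpt1a and Acadm differed by 0.06 and 0.20 with overlap.

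Bile acid genes held 1 higher and 4 lower without overlap among 20, all of them bright (25% beside 12.5% of all genes and 15.1% of bright genes). Cyp7a1, which sets the rate of bile acid synthesis, was at 843, 734 and 791 with Z off and 2316, 1248 and 1078 with Z on, and 253 to 431 with M off and 743 to 1643 with M on. Nr0b2, the nuclear repressor SHP that restrains it, was at 522, 688 and 754 with Z off and 169, 381 and 435 with Z on. These had opposite orders, with adjusted p-values of 0.77 and 0.73. By its brightest probe set the uptake carrier Slco1a1 was at 2546 to 3212 with Z off and 1760.5 to 2203 with Z on. Only 1 of the 2 Slco1a1 probe sets was lower. The receptor Fgfr4 differed by -0.36 and the conjugating enzyme Baat by -0.29. The export pump Abcb11 and the uptake carrier Slc10a1 differed by -0.24 and 0.13 with overlap.

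Among genes of glucose and hormone control, Pck1, which commits carbon to gluconeogenesis, was at 3203, 1242 and 949.7 with Z off and 5449, 4465 and 4447 with Z on. Its difference of 1.61 (SE 0.38) did not pass (adjusted p = 0.533), and without Z off replicate 1 it was 2.13 and passed (adjusted p = 0.0378, 0.0378 to 0.819 over all fits). Of 13 gluconeogenesis and glycogen genes 11 were higher and 2 lower, and Pck1 was the 1 without overlap (7.69%, below the 12.5% of all genes). G6pc, which releases glucose, differed by -0.39. Insr, the insulin receptor, was dim and differed by -1.38 without overlap. Of 16 glucocorticoid-responsive genes 11 were higher, among them the kinase Sgk1 at 65.1 to 109.6 with Z off and 140.1 to 307 with Z on. The cell cycle inhibitor Cdkn1a was at 66.2 to 105 with Z off and 17.3 to 49.7 with Z on. Other genes induced by glucocorticoids, Tat and Fkbp5, differed by 0.10 and -0.01 with overlap.

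Of 23 genes under growth hormone and STAT5 control 8 were higher and 15 lower, and 13% did not overlap, near the 12.5% of all genes. Those 3 were Elovl3, Igfals and Slco1a1, with lower values by the brightest probe set of each. Igfals, which stabilises circulating IGF-I, was at 498, 380.5 and 597 with Z off and 366, 297 and 234 with Z on. Igf1 itself differed by -0.25 and the receptor Ghr by 0.06, both with overlap. None of the 23 was called.

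Of 29 P450 genes of families 1 to 3, many of which metabolise drugs, 4 were higher and 4 lower without overlap (27.6% beside 12.5% of all genes and 15.1% of bright genes). Cyp3a13 was at 186, 184 and 234 with Z off and 263, 416 and 399 with Z on, and Cyp2c38 at 204, 174 and 373 with Z off and 671, 424 and 378 with Z on. Neither passed, with adjusted p-values of 0.604 and 0.743. Members of the Cyp2c family are close in sequence, so their probe sets can share signal. The abundant Cyp3a11 and Cyp2e1 differed by 0.01 and 0.16 with overlap. Of 30 conjugating enzymes 3 were higher and 1 lower without overlap, a share of 13.3% that is near the 12.5% of all genes.

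In nitrogen metabolism 2 genes were higher and 2 lower without overlap among 21, all of them bright (19% beside 12.5% of all genes and 15.1% of bright genes). Oat, ornithine aminotransferase, was at 896, 1108 and 1136 with Z off and 1619, 2310.1 and 1329.9 with Z on. Nags, which makes the activator of the urea cycle, was at 514, 582 and 444 with Z off and 318, 368 and 327 with Z on. The enzymes of the cycle, Cps1, Otc, Asl and Arg1, differed by -0.10, -0.20, 0.08 and 0.24, all with overlap.

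Apoptosis genes held 5 higher and 4 lower without overlap among 29, and 31% did not overlap beside 12.5% of all genes. Tnfrsf1a, the main TNF receptor, was at 317, 318 and 314 with Z off and 463, 425 and 512 with Z on. The executioner caspase Casp6 was at 116, 133 and 129 with Z off and 164, 154 and 176 with Z on, and Bid, which carries death receptor signals to mitochondria, at 137, 137 and 136 with Z off and 183, 178 and 161 with Z on. Mdm2, the ligase that restrains p53, was at 100.5 to 139.7 with Z off and 57.3 to 89 with Z on, by the 1 of its 2 probe sets that was lower. Their adjusted p-values were 0.743, 0.787, 0.787 and 0.743, so none passed. Of 32 cell cycle genes 11 were higher and 21 lower, but only 5 had a mean signal of 100, among them Pcna at 0.20 and Ccnd1 at -0.36.

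Across all 40 pathway lists, 873 of 1016 entries had a probe set, and list medians ran from -0.38 for matrix genes to 0.88 for clock outputs, the latter from 0.55, without Z on replicate 1 or with 50 added before log2, to 1.28, without Z on replicate 3. Between these ends, acute phase proteins had a median of 0.18, ribosomal proteins 0.13 and secreted serpins 0.11. Complement was at -0.09, plasma carriers and apolipoproteins at -0.04 and coagulation at -0.03. Among 19 hepatocyte transcription factors none lacked overlap, with Hnf4a at 0.03 and Cebpa at -0.17. Of 11 secreted serpins, all of them bright, 2 did not overlap (18.2% beside 12.5% of all genes and 15.1% of bright genes). These were Serpina12, at -0.82 with Z and -1.71 with M, and antithrombin, Serpinc1, at -0.09.

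**Figure D5:**
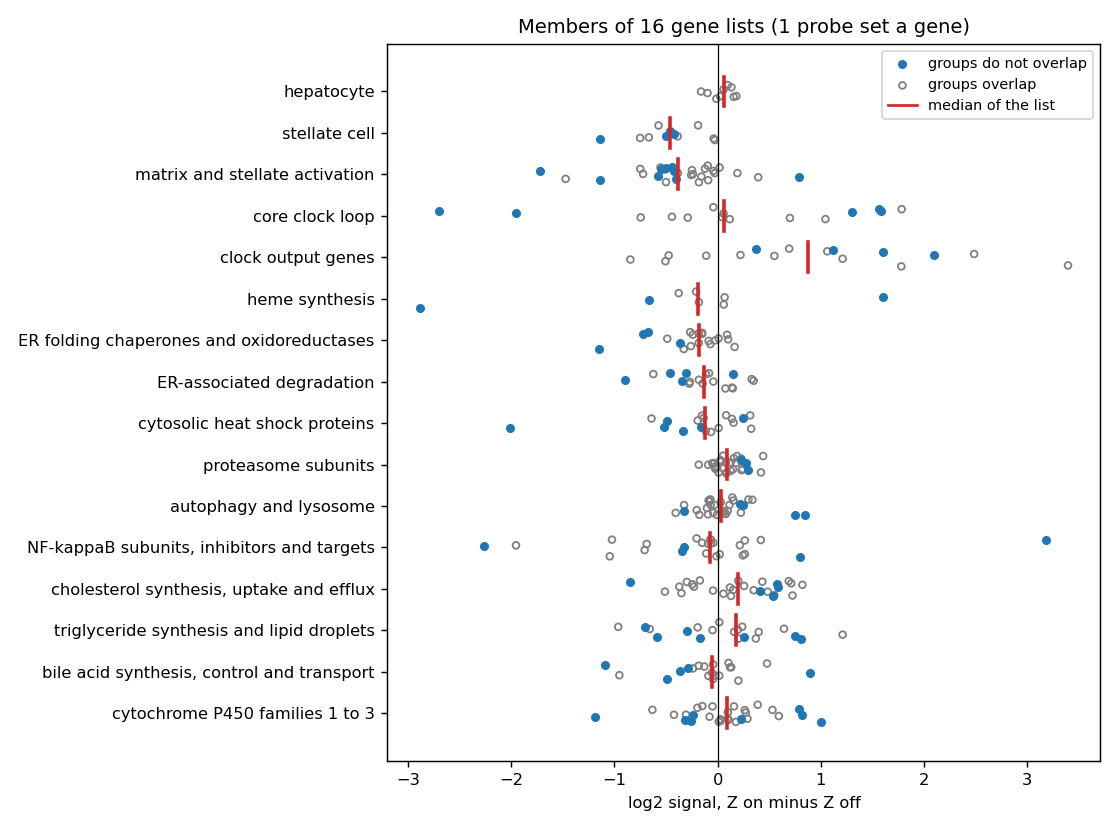
Each point is 1 gene of 16 lists, by the log2 difference Z on minus Z off of its brightest probe set, filled where the 3 Z on arrays did not overlap the 3 Z off arrays, with the list median as a red bar. Clock outputs have the highest median, 0.88, stellate cell markers and matrix genes the lowest of these lists, and hepatocyte markers lie close to 0.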

How the data were processed

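Total RNA from 12 mouse livers, biotin-labelled, was read on 1-colour Affymetrix arrays (per the labels). The authors deposited intensities, a linear signal for every probe set on every array. RMA is the tool in the submitters' processing notes, but the intensities are linear with an equal trimmed mean on each array, unlike RMA output, so how they were made remains unknown here. Of them 28.3% lie below 16. Of 22690 probe sets 64 array controls were left out, and 1 value of 0 was set to 0.1 before log2. Names came from the platform annotation (20380 probe sets with 1 symbol, 691 with several and 1555 with none). All 12 arrays entered 1 limma model (3.58.1, R 4.3.3) of group means, with Benjamini-Hochberg adjustment over all probe sets, and was tested on simulated data. The number of arrays limits the precision. P-values measure the spread between these samples.

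Named genes were the calls of both fits, the 15 higher and 15 lower bright genes of smallest p without overlap, the largest differences among them, and list members. Members, lists and rules were chosen with earlier results of these data known. Lists (40 of pathways, 12 of cell types) were counted over the brightest probe set of each gene. Replicate numbers did not pair the samples by the labels. Alternatives changed the normalization, the pseudocount, the variance model, the filter, the arrays and the probe sets. Promoters came from RefSeq (GRCm38.p6), while the sources used here name no build for the array annotation.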

Additional observations from a re-analysis of the deposited data

Results flagged for a closer look

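The 18S ribosomal control is outside the gene measurements. Its 3' probe set had a mean signal of 1296.5 on the 3 Z on arrays (SD 331). On the 3 Z off arrays the mean was 208.8 (SD 146). On that probe set every Z on array was above every Z off array and every M array. On the middle 18S probe set Z on replicate 2 read 185, below M off replicate 1 at 257.3 and M on replicate 1 at 330. The Z on arrays lay above the Z off arrays there too. The part of the 18S control in the gene differences was not tested.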

How the results depend on the processing

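Against 3 probe sets called over all, quantile normalization, array weights and 1 probe set per gene gave 2 to 3. Median centring gave 1, log2(signal + 16) gave 1, log2(signal + 50) gave 1, intensity trend with robust variances gave 8, and the 6 Z arrays alone gave 0 (1279 at an unadjusted p under 0.05). Leaving out 1 array gave 2 to 5, with 5 without Z off replicate 3. Among bright probe sets the count of 1 became 5 with the intensity trend, 3 with bright probe sets alone and 0 with the 6 Z arrays alone, and 1 to 2 without 1 array, with 2 without Z on replicate 3 or Z off replicate 1. With the replicate number as a block, 1 probe set was called over all, and the blocked fit left the bright count at 1 and the interaction count at 0. The deviations of same-numbered Z arrays correlated at 0.043, 0.18 and 0.19, and those of the other pairs at -0.24 to 0.065. Whether same-numbered arrays share a batch was not tested. Interactions called among named genes, 0 in the reported fit, were 1 with median centring, 1 with log2(signal + 16), 1 with array weights, 1 with 1 probe set per gene, 2 with log2(signal + 50), 2 with the intensity trend and 2 with bright probe sets alone, and 0 to 1 without 1 array (1 without Z on replicate 1). These were Alas2, and Stbd1 where 2 were called. The interaction could not be fitted with the 6 Z arrays alone. Many of the single probe sets were chosen because their Z groups did not overlap, and most were not called. Leaving out 1 array cannot turn the sign where groups do not overlap, so agreement is partly built in. Of 2037 values of single probe sets under alternatives, 1997 kept direction and side of the threshold, and 9 turned sign. Those were Nr1d1 (0.0044 with median centring, 0.11 with array weights, and -0.42 to 0.44 over the fits without 1 array), Alb (-0.038 to 0.17 without 1 array), Serpina1b (-0.15 to 0.028 without 1 array) and Xbp1 (-0.013 to 0.17 without 1 array). Of 827 list medians 787 moved by less than 1 SD. The cause of these changes was not tested. Signals near the floor limit what can be said of dim probe sets.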
